A study of Sus scrofa with 35 samples.

Results

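The genes described here encode the folding machinery and the stress signals of the endoplasmic reticulum (ER): the chaperones HSPA5, HSP90B1, CALR and CANX, the disulphide isomerases PDIA3 and PDIA4, the transcription factors XBP1, ATF4 and DDIT3, and HERPUD1, a membrane protein of ER-associated degradation. They were found by the gene name printed beside each probe in the scanner files. Of the 10 genes listed, 9 had a probe under their name, and PDIA4 had none and is not described further. Together they had 42 of the 60305 probes of the array, and 40 of these passed the filter on dim probes, among 41517 probes that did. With 1 probe taken per gene, the one with the highest mean level, they were 9 of the 9153 genes that could be named among the probes kept.

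The samples were longissimus dorsi muscle, the long muscle of the back, from castrated male growing pigs of the Creole and Large White breeds and of their F1 cross, 1 pig per array on 35 one-colour arrays with 60-base probes. Thermoneutral (TN) pigs, labelled 24 °C, were slaughtered before the temperature of the climatic room was raised, and heat-stressed (HS) pigs after it. The sample labels give the raised temperature as 30 °C, while the growth protocol gives 32 °C for 5 days. There were 6 pigs in each of the groups Creole TN, Creole HS, F1 TN, Large White TN and Large White HS, and 5 in F1 HS. With this order, temperature cannot be told apart from the day of slaughter, and pens and litters are not given in the labels.

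The ER is where secreted and membrane proteins fold. HSPA5 (also called BiP or GRP78) holds unfolded chains and keeps the stress sensors silent, HSP90B1 (GRP94) finishes a set of client proteins, and calnexin (CANX) and calreticulin (CALR) hold glycoproteins by their sugars while PDIA3 (ERp57) forms their disulphide bonds. When unfolded proteins pile up, the unfolded protein response begins: IRE1 splices the XBP1 message, PERK slows translation and favours that of ATF4, and ATF6 is cut free to enter the nucleus. The targets of these factors include the chaperones, HERPUD1 and, under lasting stress, DDIT3 (CHOP), a factor tied to cell death. In a muscle fibre most of the ER is sarcoplasmic reticulum, which stores calcium for contraction, whereas the fibroblasts and leukocytes between the fibres have the secretory kind. In a piece of muscle, fewer cells of a type and less RNA per cell cannot be told apart.

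Some probes differ from the rest in ways that bear on how the values below can be read, and these are shown by their sequences. The first 2 lines are HSPA5 probes: one whole, from a stretch that is open to translation on the printed strand, and 30 bases of the brighter one, with the letters AATAAA of a polyadenylation signal in capitals. The third line is 30 bases of the brightest CANX probe, with the same letters in capitals, and the fourth line is a DDIT3 sequence that 2 probes of different names share in full. The fifth and sixth lines are HSP90B1 probes in which the capitals mark 39 bases of one that are the reverse complement of 39 bases of the other. The last line is 30 bases of a further HSP90B1 probe, with the codons for lysine, aspartate, glutamate and leucine that end the protein in capitals, the signal that returns a protein to the ER, followed by the stop codon.
HSPA5, probe A_72_P416982: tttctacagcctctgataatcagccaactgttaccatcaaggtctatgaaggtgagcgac
HSPA5, probe A_72_P205757: ccataagtgacaccAATAAAtgtttgttat
CANX, probe A_72_P407258: gtattgagtgcaAATAAAcatttccttagc
DDIT3, probes A_72_P440751 and O11871: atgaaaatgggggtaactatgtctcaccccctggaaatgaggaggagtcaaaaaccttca
HSP90B1, probe CUST_304_PI427286967: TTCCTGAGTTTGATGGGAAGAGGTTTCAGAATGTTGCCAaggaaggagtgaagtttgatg
HSP90B1, probe O7995: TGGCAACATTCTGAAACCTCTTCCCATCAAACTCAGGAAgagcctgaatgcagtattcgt
HSP90B1, probe A_72_P665834: acatctacagctgaaAAAGATGAACTGtaa

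The scanner files give no chromosome position for these probes, so none is printed. AATAAA was found on the printed strand of 5 of the 42 member probes (11.9%) and of 6185 of the 60306 non-control spots (10.3%). The paired HSP90B1 probes lie on opposite strands of the same stretch: the first was well above background on all 35 arrays, and the second, O7995, on 10 of 35, and it was not kept. The other probe that was not kept, one for HERPUD1, was well above background on 2 arrays. The DDIT3 pair with 1 sequence gave changes with temperature of 0.085 ± 0.084 and 0.068 ± 0.089 (log2, standard error). From array to array, with group means removed, the pair had r = 0.89, at mean log2 levels of 7.73 and 8.01. HSPA5, ATF4 and XBP1 also have probes that overlap by 36 to 50 bases, so the probes of a gene are not independent measurements.

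Levels below are log2 intensities after quantile normalisation. They compare arrays at 1 probe and do not rank genes against each other, since the brightness of a probe depends on its sequence. Unless stated otherwise, changes and their standard errors come from a limma fit with breed and temperature as terms, and p-values are adjusted by the Benjamini-Hochberg method over the 41517 probes, with calls at 0.05.

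The question of the heat challenge was which genes of the muscle changed between TN and HS pigs. Over all breeds, 1 of the 9 member genes, CANX, passed the test, against 18.3% of all named genes at 1 probe each and 16.0% of all probes kept. Of all probes called 48.2% were higher in HS, against 27.2% under 75th percentile scaling and 87.2% under spike-in scaling. At an unadjusted p under 0.05 there were 2 member genes, CANX and XBP1, against 30.7% of all probes. The median change of the 9 genes was 0.19, and that of all named genes was -0.03. Of the 40 member probes, 28 had a fitted change above 0 and 12 one below 0. Only the brightest CANX probe was called (7.73% of all probes were called higher in HS).

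CANX is the membrane-bound lectin that retains glycoproteins until they are folded. In Creole TN pigs its values ran from 11.99 through a median of 12.16 to 12.29, and in Creole HS pigs from 12.12 through 12.62 to 12.87. In F1 TN pigs they ran from 12.04 through 12.29 to 13.02, and the 5 F1 HS pigs read 12.43, 12.50, 12.63, 12.54 and 12.34. In Large White TN pigs they ran from 11.92 through 12.02 to 12.76, and in Large White HS pigs from 12.09 through 12.34 to 13.28. The TN and HS ranges overlapped in each breed, and 13 of 17 HS arrays lay above the TN mean of their own breed.

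The fitted change of CANX was 0.29 ± 0.10 (log2, standard error; adjusted p = 0.0410), from a mean of 12.23 ± 0.29 (SD, n = 18) in TN to 12.52 ± 0.31 (SD, n = 17) in HS. The call did not hold at the other CANX probes, which gave 0.17 ± 0.11 (adjusted p = 0.309) and -0.07 ± 0.07 (adjusted p = 0.584). The last of these followed the brightest probe poorly from array to array (r = -0.18 with group means removed), while the former followed it closely (r = 0.86). Leaving out 1 array at a time, the call was kept in 16 of 35 fits, with an adjusted p between 0.00972 and 0.0695. Under scaling to the 75th percentile the change was 0.26 (adjusted p = 0.0533), and when arrays were scaled by the spike-in probes, where the median of all named genes shifts from -0.03 to 0.09, it was 0.41 (adjusted p = 0.0580).

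Most leukocyte markers, the connective tissue markers and the brightness of the arrays were also higher in HS, while endothelial and blood cell markers were mostly lower. The 15 measured of 16 leukocyte markers had a median change of 0.74. Of these 6 were called (40.0%, against 18.3% of all named genes), all higher in HS: CSF1R, AIF1, TYROBP, FCER1G, LYZ and CD74. The other 9 ran from -0.02 (PTPRC) to 0.82 (LCP1), with CD3E, CD2 and CD8A at 0.18, 0.28 and 0.13. The mean level of the 15 ran from 7.81 to 10.58 in TN and from 9.16 to 10.91 in HS arrays. The 11 measured of 12 connective tissue markers had a median change of 0.33 with 5 called (45.5%), also all higher. Their mean ran from 11.55 to 13.20 in TN and from 12.60 to 13.49 in HS. Of the 7 endothelial markers, all measured, 6 were lower in HS in the fit, with a median change of -0.20. Among them 1 was called, VWF, which fell by 0.36 (adjusted p = 0.00226). The endothelial mean ran from 10.34 to 11.26 in TN and from 10.20 to 10.90 in HS. Of 4 blood cell markers 3 were measured, with a median of -0.23 and 1 called, the globin HBB, which fell by 1.21 (adjusted p = 0.000536). The 6 adipocyte markers had a median of 0.08 with no call. The 75th percentile of the raw signal was 535 on average in TN (SD 63.5, n = 18), and in HS it was 612 (SD 101, n = 17). Once the mean of the leukocyte markers entered the fit, the CANX change was 0.03 (adjusted p = 0.852), with the connective tissue mean 0.14 (adjusted p = 0.589), and with array brightness 0.14 (adjusted p = 0.404). Of muscle itself, 9 of 10 markers were measured, with 1 called higher and 3 lower. Markers of plasma cells, the antibody-secreting cells rich in ER, were measured for 3 of 8 genes, none of them called and with a median change of -0.02. Their part in the result was not tested beyond these fits.

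The other chaperones did not pass the test. HSPA5, the master chaperone and the usual readout of ER stress, had a TN mean of 12.65 ± 0.40 (SD, n = 18), an HS mean of 12.64 ± 0.40 (SD, n = 17) and a fitted change of -0.01 ± 0.13 (adjusted p = 0.974). Its values ran from 12.11 through a median of 12.45 to 12.87 in Creole TN and from 12.31 through 12.61 to 13.26 in Creole HS. They ran from 12.38 through 12.65 to 13.53 in F1 TN, and the 5 F1 HS pigs read 12.56, 12.56, 12.67, 12.66 and 12.37. In Large White pigs they ran from 12.19 through 12.74 to 13.35 in TN and from 12.26 through 12.44 to 13.86 in HS. The groups overlapped in each breed, and 4 of 17 HS arrays lay above the TN mean of their own breed. The other 2 HSPA5 probes, the first of them printed whole above, gave -0.09 ± 0.13 and 0.02 ± 0.13. Once the mean of the leukocyte markers entered the fit, HSPA5 was instead lower in HS, by -0.37 (adjusted p = 0.0107).

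HSP90B1 had the most probes. All 9 that were kept were higher in HS in the fit, by 0.15 to 0.24, and none was called (adjusted p from 0.269 to 0.482). At the brightest probe the TN mean was 13.37 ± 0.44 (SD, n = 18), the HS mean 13.61 ± 0.44 (SD, n = 17) and the change 0.24 ± 0.15, and 12 of 17 HS arrays lay above the TN mean of their breed. The other 8 probes followed it from array to array with r between 0.96 and 0.97, the one over the ER-retrieval codons included. CALR, the soluble partner of CANX, changed by 0.19 ± 0.17 at its brightest probe (adjusted p = 0.47), with 7 of 17 HS arrays above the TN mean, and its other probes gave 0.22 ± 0.17 and -0.02 ± 0.16. PDIA3, the isomerase that works with both lectins, changed by 0.26 ± 0.17 (adjusted p = 0.307) and by 0.11 ± 0.15 at its second probe.

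**Figure D1:**
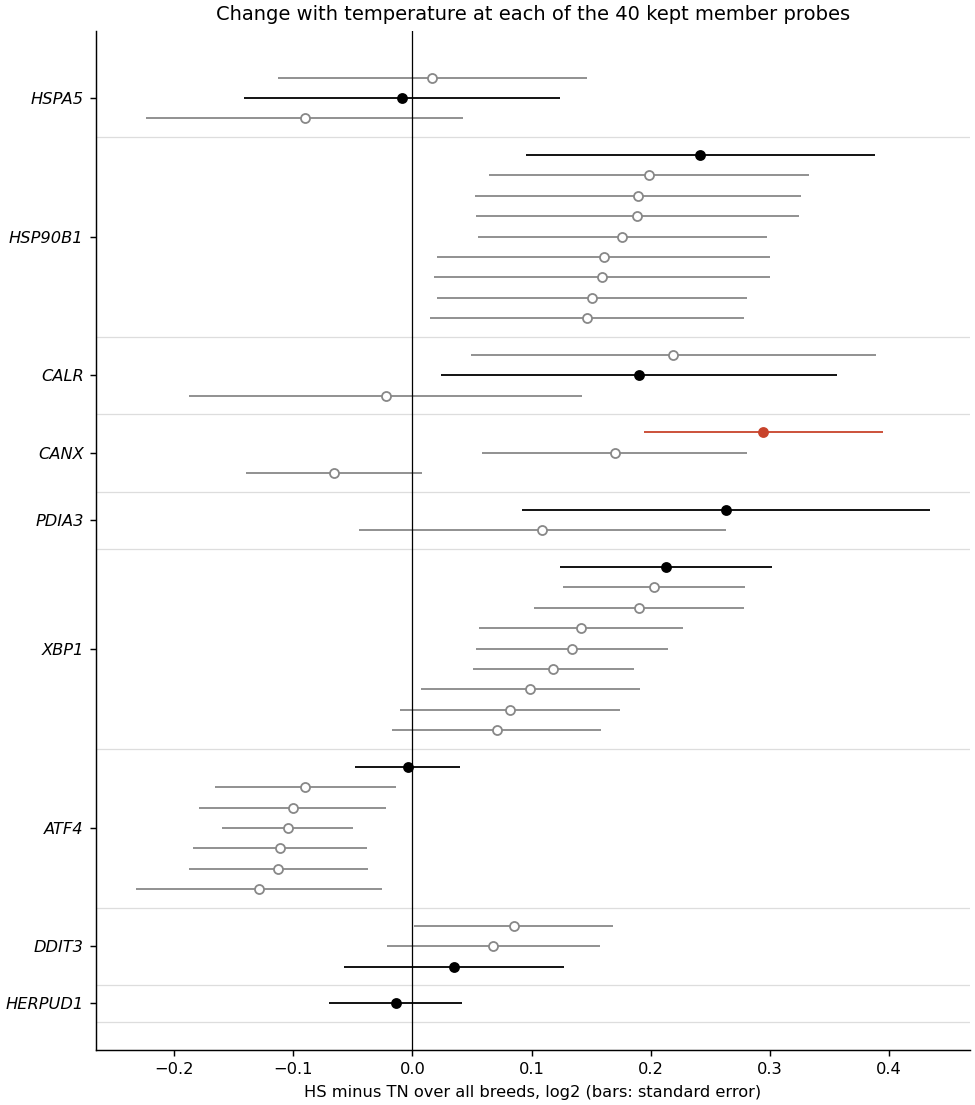
Change from TN to HS over all breeds at each of the 40 member probes kept (x axis, log2; bars are standard errors), grouped by gene, with filled points for the brightest probe of a gene and red for a call. All probes of HSP90B1 and XBP1 lie above 0 and all of ATF4 below it, with 1 call, at CANX.

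Of the transcription factors, XBP1 came nearest to a call. Its spliced message makes the factor that widens ER folding and degradation capacity, and whether any of the probes separates the spliced from the unspliced form was not examined. At the brightest probe the TN mean was 14.06 ± 0.29 (SD, n = 18) and the HS mean 14.27 ± 0.24 (SD, n = 17), and 14 of 17 HS arrays lay above the TN mean of their breed. The change was 0.21 ± 0.09 (adjusted p = 0.0955), and over the 9 probes it ran from 0.07 to 0.21 with adjusted p from 0.0638 to 0.627. With 1 array left out, XBP1 was called in 1 of 35 fits, with an adjusted p between 0.0323 and 0.161. In that fit, without F1 TN replicate 2, the array in which XBP1 stood highest in that group, the change was 0.25. It was smaller and not called under 75th percentile scaling (0.11, adjusted p = 0.317), with the processed signal (0.09, adjusted p = 0.474), with array brightness in the fit (0.14, adjusted p = 0.425), with the connective tissue mean (0.06, adjusted p = 0.821) and with the leukocyte mean (0.01, adjusted p = 0.939).

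ATF4 and DDIT3, which act together in prolonged stress, were not called. At its brightest probe ATF4 had a TN mean of 17.97 ± 0.13 (SD, n = 18) and an HS mean of 17.97 ± 0.16 (SD, n = 17), and its 7 probes gave changes between -0.13 and -0.00, with adjusted p of 0.194 or more. The size at the brightest probe depended on the scaling: it was -0.20 under 75th percentile scaling (adjusted p = 0.0558), -0.22 with the processed signal (adjusted p = 0.0564) and -0.13 under median scaling (adjusted p = 0.166). DDIT3 had a TN mean of 10.28 ± 0.28 (SD, n = 18), an HS mean of 10.32 ± 0.30 (SD, n = 17) and a change of 0.03 ± 0.09 (adjusted p = 0.840), with 8 of 17 HS arrays above the TN mean of their breed. HERPUD1, a target of the response in many cells, had a TN mean of 13.20 ± 0.20 (SD, n = 18), an HS mean of 13.19 ± 0.11 (SD, n = 17) and a change of -0.01 ± 0.06 (adjusted p = 0.897). The messages of ATF4 and XBP1 are controlled largely after transcription, so an array of whole messages covers only part of their response.

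Within each breed the same contrast was fitted on the 6 groups. No member gene was called within Creole, within F1 or within Large White pigs, against 1.91%, 0.00482% and 0.00482% of all probes. At an unadjusted p under 0.05 there was 1 member gene within Creole pigs, CANX, and none within the other breeds. In Creole pigs 8 of the 9 genes had a higher mean in HS, with a median change of 0.25, in Large White pigs 6 of 9, with a median of 0.27 and in F1 pigs 4 of 9, with a median of -0.01. The median over all named genes was -0.03 in both parental breeds and -0.01 in F1.

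The folding genes differed most in these contrasts. In Creole pigs the changes were 0.25 ± 0.23 for HSPA5, 0.40 ± 0.25 for HSP90B1, 0.44 ± 0.28 for CALR, 0.43 ± 0.17 for CANX and 0.42 ± 0.29 for PDIA3 (log2, standard error). In Large White pigs they were -0.09 ± 0.23, 0.40 ± 0.25, 0.32 ± 0.28, 0.32 ± 0.17 and 0.45 ± 0.29 in the same order. In F1 pigs they were -0.20 ± 0.24, -0.11 ± 0.26, -0.22 ± 0.29, 0.12 ± 0.18 and -0.12 ± 0.31. All 9 HSP90B1 probes had a lower mean in HS in F1 pigs, by -0.25 to -0.11, and a higher one in both parental breeds, by 0.20 to 0.40 in Creole and 0.31 to 0.44 in Large White.

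The difference between breeds did not pass its own test. No member was called for the interaction of breed and temperature, with an adjusted p of 0.963 or more for each, and none had an unadjusted p under 0.05. Of all probes 0% were called, and 1593 had an unadjusted p under 0.05. In F1 pigs the contrast also turned on 1 array: without F1 TN replicate 2 the changes were -0.04 for HSPA5, 0.07 for HSP90B1, -0.01 for CALR, 0.25 for CANX and 0.06 for PDIA3. In Large White pigs, without replicate 5 of the HS group they were -0.33, 0.20, 0.08, 0.16 and 0.21 in that order. XBP1 had a higher mean in HS in each breed, by 0.21 ± 0.16 in Creole, 0.16 ± 0.16 in F1 and 0.27 ± 0.16 in Large White pigs.

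**Figure D2:**
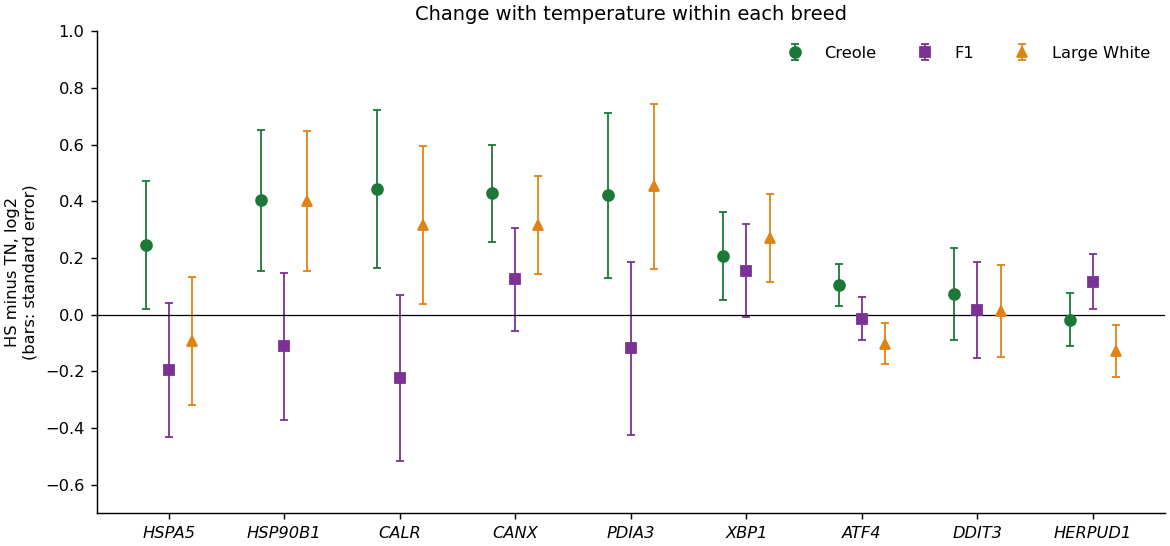
Change from TN to HS within each breed (y axis, log2; bars are standard errors) for the 9 member genes. HSPA5, HSP90B1, CALR and PDIA3 lie below 0 in F1 pigs, by -0.22 to -0.11, and XBP1 lies above 0 in all 3 breeds; no point was called.

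Between breeds, over both temperatures, no member gene was called either. Creole against Large White called 3.64% of all probes, F1 against Large White 0.525% and F1 against Creole 0.477%. Unadjusted p-values under 0.05 were found for 1 member gene in the first comparison (ATF4), for none in the second and for 2 in the third (ATF4 and DDIT3), against 15.4%, 10.5% and 8.88% of all probes.

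Of the members, ATF4 came nearest to a call between breeds. Its values at the brightest probe were 17.98 to 18.24 in Creole TN with a median of 17.99, and 18.01 to 18.30 in Creole HS with a median of 18.14. In Large White pigs they were 17.80 to 18.14 in TN with a median of 18.00, and 17.79 to 17.95 in HS with a median of 17.90. In F1 TN they were 17.71 to 18.04 with a median of 17.88, and the 5 F1 HS pigs read 18.01, 17.77, 17.69, 17.85 and 18.02. These ranges are a description, and the share of all genes whose groups lie as far apart was not counted. ATF4 was not called in the test for an interaction of breed and temperature (adjusted p = 0.963).

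The 7 ATF4 probes were all higher in Creole than in Large White pigs, by 0.14 to 0.40, with an unadjusted p under 0.05 at each and the lowest adjusted p at 0.0671. At the brightest probe the difference was 0.14 ± 0.05 (adjusted p = 0.158), with all 12 Creole arrays above the Large White mean. All 7 were also lower in F1 than in Creole pigs, by -0.29 to -0.21, with the lowest adjusted p at 0.0752, and F1 against Creole was called at the brightest probe with normexp background correction (-0.21, adjusted p = 0.0403) and with array weights (-0.21, adjusted p = 0.0274). The 7 probes are not separate evidence, since they measure 1 message and some share sequence. Markers of other cells also differed between these breeds. All 11 connective tissue markers measured were lower in Creole than in Large White pigs in the fit, with a median difference of -0.31 and 2 called (COL3A1 and DCN). So were all 7 endothelial markers, with a median of -0.17 and 3 called (KDR, PECAM1 and CLDN5). Of the leukocyte markers 12 of 15 were lower, with a median of -0.25 and 1 called. Of the 9153 named genes 144 were called higher and 207 lower in Creole than in Large White pigs. ATF4 had r = -0.40 with the connective tissue mean over the 35 arrays, group means removed, and with that mean in the fit its difference was 0.10 (adjusted p = 0.467). HSPA5, at the same time, was lower in Creole than in Large White pigs by -0.18 ± 0.16 (adjusted p = 0.664).

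The folding genes and XBP1 varied together among pigs of the same group. With the group means removed, the 10 pairs among HSPA5, HSP90B1, CALR, CANX and PDIA3 had correlations from 0.68 to 0.96 over the 35 arrays, with a median of 0.89, and the closest pair was HSP90B1 and CALR. XBP1 followed these 5 genes with r from 0.62 to 0.76. DDIT3 ran against them, with r from -0.56 to -0.39, and ATF4 and HERPUD1 were near 0, from -0.19 to -0.05 and from -0.06 to 0.25. ATF4 and HERPUD1 had r = 0.40 with each other. All points share array, RNA preparation and normalisation, so these correlations are a description.

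**Figure D3:**
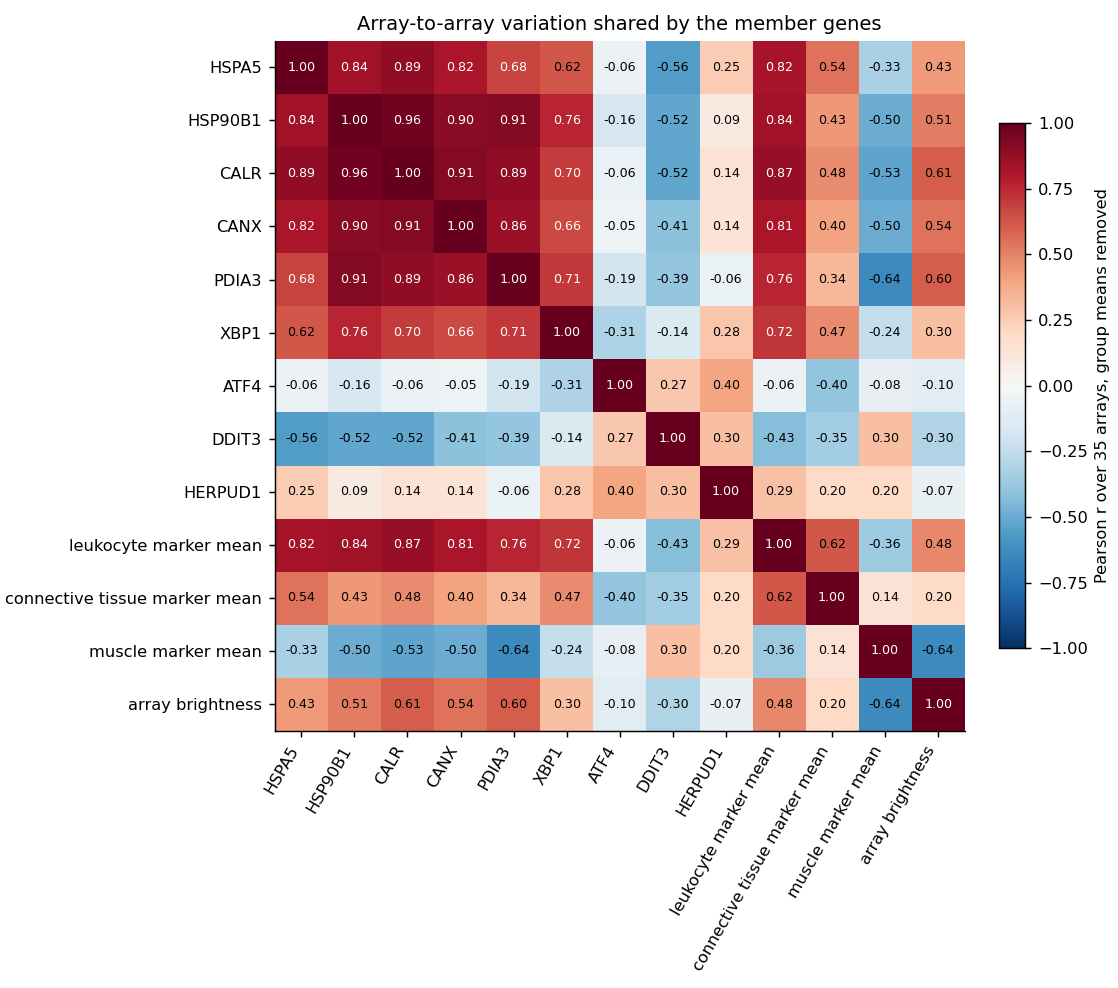
Pearson correlation over the 35 arrays, with group means removed, among the 9 member genes, the mean levels of 3 marker lists and array brightness (colour scale from -1 to 1). The folding genes and XBP1 form a block from 0.62 to 0.96 that also takes in the leukocyte marker mean, and ATF4, DDIT3 and HERPUD1 lie outside it.

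Of the members, the folding genes differed most between pigs. The spread within groups was 0.41 for HSPA5, 0.45 for HSP90B1, 0.51 for CALR, 0.31 for CANX and 0.53 for PDIA3 (log2, SD), against a median of 0.22 over all named genes. It was 0.29 for DDIT3 and 0.27 for XBP1, both close to CANX. For HERPUD1 it was 0.16, and for ATF4 0.11, at percentile 2.90 of the named genes. These spreads are those of the brightest probe of each gene. At ATF4 that probe gave the smallest change with temperature and the smallest difference between Creole and Large White pigs of its 7 probes. It followed the other 6 with r from 0.29 to 0.71, group means removed. This ATF4 probe lies at the bright end of the arrays, with a TN mean of 17.97 beside 18.14 for the muscle marker mean. Quantile normalisation gives all arrays the same set of values, and some ATF4 values recur from array to array. Whether this narrowed the spread of ATF4 was not tested. Whether a difference was easier to detect in ATF4 or HERPUD1 than in the chaperones was not tested.

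Some of that spread lay in 2 arrays. Large White HS replicate 5 had the highest value of all 35 arrays for HSPA5 (13.86), HSP90B1 (14.70), CALR (15.87), CANX (13.28), PDIA3 (12.22) and XBP1 (14.70), and F1 TN replicate 2 had the second highest for the same 6 genes. In the leukocyte marker mean they ranked 2 and 3, at 10.90 and 10.58. In ATF4 they ranked 32 and 16 and in DDIT3 30 and 27. With both left out, the pairs of folding genes had r from 0.46 to 0.94 with a median of 0.82, and CANX was called with a change of 0.29 (adjusted p = 0.0140).

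The leukocyte marker mean had r from 0.76 to 0.87 with the 5 folding genes, and from 0.70 to 0.86 without these 2 arrays. The connective tissue marker mean had r from 0.34 to 0.54, the muscle marker mean from -0.64 to -0.33, and array brightness from 0.43 to 0.61. ATF4 had r = -0.06 with the leukocyte mean and DDIT3 r = -0.43. Whether the shared variation came from leukocytes, from fibroblasts or from the fibres was not tested.

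The genes most like each member, by the same correlation over all 9152 other named genes, were named for each. For HSPA5 they were CAPZA1 (r = 0.93), PAQR8, CLIC1, RRBP1 and IQGAP1, all at 0.92, and 428 genes (4.68%) reached 0.8. For HSP90B1 they were SDF2L1 (0.97), CALR (0.96), PPIB, ACTR3 and CFL1 (0.95 each), and for CALR PPIB, ACTR3, ATP6V1A, SDF2L1 and HSP90B1, from 0.97 to 0.96. SDF2L1 and PPIB are themselves ER folding factors. For CANX the first was ATP6V1A (0.94) and for PDIA3 MCM6 (0.94). Genes at 0.8 or more numbered 534 (5.83%) for HSP90B1, 633 (6.92%) for CALR, 408 (4.46%) for CANX and 302 (3.30%) for PDIA3. XBP1 was closest to PISD (0.87), with 18 genes at 0.8 or more, and DDIT3 was closest to PPP1R3C (0.74), ATF4 to KIDINS220 (0.65) and HERPUD1 to OAZ1 (0.61), none of which reached 0.8.

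The wider pathway was followed through 7 lists with 92 genes, of which 79 were measured. Of these 5 were called higher in HS and 7 lower, or 15.2%, against 18.3% of all named genes. Of the 9153 named genes 765 were called higher and 911 lower. The median change was 0.00, beside -0.03 for all named genes.

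Among the genes closest to the members in function there was 1 call. Of the other ER chaperones and co-chaperones 13 of 13 were measured and none was called, with a median of 0.07 and the largest change in PPIB, a prolyl isomerase of the ER (0.26 ± 0.17). Of the other disulphide isomerases and oxidases 8 of 10 were measured, with a median of 0.16 and the largest change in PDIA5 (0.28 ± 0.15, adjusted p = 0.183). The only call in that list was TXNDC12 (ERp18), which fell by 0.22 ± 0.07 (adjusted p = 0.0274). Of the sensors and their signalling partners 9 of 10 were measured and none was called, with a median of -0.01 and the largest change in EIF2AK3, which encodes PERK (-0.06 ± 0.08). The sensor ATF6 was higher in Creole than in Large White pigs by 0.40 ± 0.10 (adjusted p = 0.0179), the only gene of the 7 lists called in that comparison, though not under spike-in scaling (0.32, adjusted p = 0.121).

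The list medians changed with the covariates and the scaling of the fit. The leukocyte and connective tissue means and array brightness were themselves higher in HS, and the source of the shifts was not tested. With the leukocyte mean in the fit the median was -0.23 for the other chaperones, -0.13 for the isomerases and oxidases and -0.07 for the genes of translocation and glycoprotein quality control, which was 0.10 without it. With the connective tissue mean the 3 medians were -0.11, -0.03 and -0.01, and with array brightness -0.09, 0.04 and 0.02. The median of the sensors was 0.05 under median scaling and 0.13 under spike-in scaling.

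**Figure D4:**
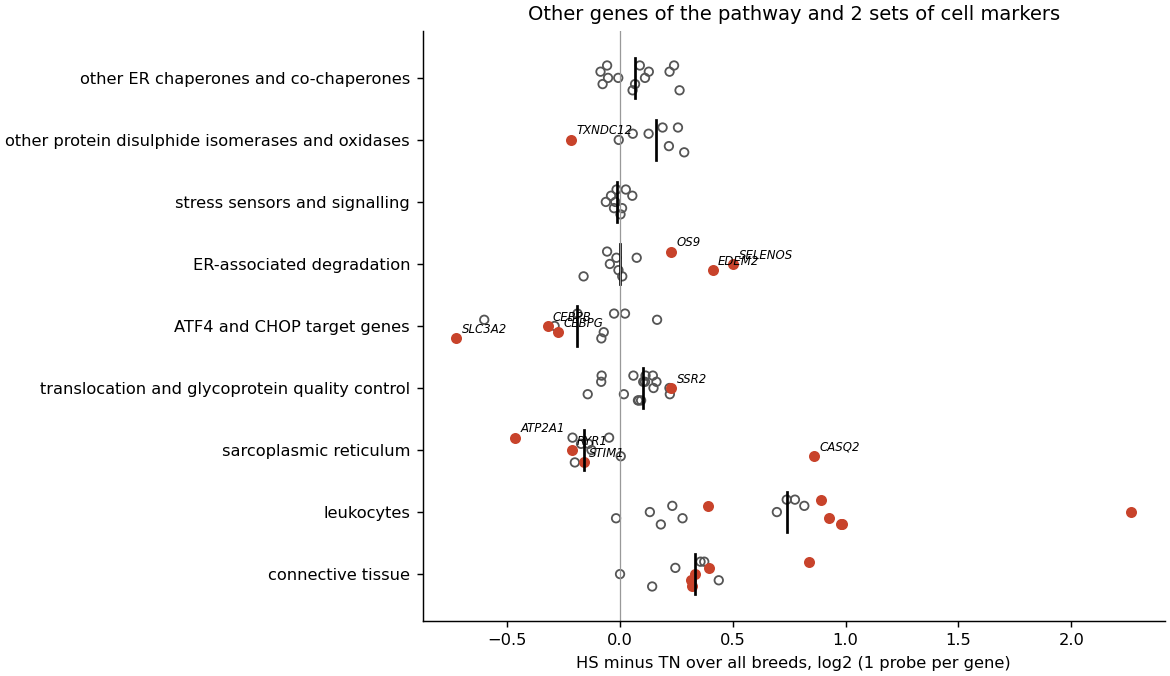
Change from TN to HS over all breeds (x axis, log2, 1 probe per gene) for the genes of the 7 pathway lists and of the leukocyte and connective tissue markers; red filled points were called, open points were not, and black lines are list medians. The chaperone and sensor lists hold no call, whereas the leukocyte median is 0.74.

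Each of the other 4 lists held calls. Of the genes of ER-associated degradation 10 of 15 were measured and 3 rose (30.0% called, against 18.3% of all named genes). SELENOS, a selenoprotein of the retrotranslocation complex, rose by 0.50 ± 0.09 (adjusted p = 0.000538), from 12.60 ± 0.32 (SD, n = 18) to 13.10 ± 0.23 (SD, n = 17). EDEM2, which trims mannose from glycoproteins that fail to fold, rose by 0.41 ± 0.11 (adjusted p = 0.00789), and the lectin OS9 by 0.23 ± 0.05 (adjusted p = 0.00415). HS arrays lay above the TN mean of their breed in 17 of 17 cases for SELENOS and EDEM2 and in 16 of 17 for OS9. The median of the list was 0.00.

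Of the genes on the target list of ATF4 and DDIT3, those called were lower in HS. Of the 16 on the list 11 were measured, with a median of -0.19, and 3 fell (27.3% called). SLC3A2, the heavy chain of an amino acid transporter, fell by 0.72 ± 0.14 (adjusted p = 0.000941), from 10.59 ± 0.51 (SD, n = 18) to 9.87 ± 0.30 (SD, n = 17), and all 17 HS arrays lay below the TN mean of their breed. The transcription factor CEBPB fell by 0.32 ± 0.09 (adjusted p = 0.0111), and CEBPG fell by 0.27 ± 0.08 (adjusted p = 0.0198). ATF4 itself was not called, as given above.

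Of the genes of translocation and glycoprotein quality control 17 of 17 were measured, 14 were higher in HS in the fit, and 1 was called (5.88%). This gene, SSR2, a subunit of the translocon-associated complex, rose by 0.23 ± 0.05 (adjusted p = 0.00128). All 17 HS arrays lay above the TN mean of their breed. In the sarcoplasmic reticulum, where all 11 genes were measured, 1 rose and 3 fell (36.4% called). CASQ2, the calcium-binding calsequestrin of cardiac and slow muscle, rose by 0.86 ± 0.20 (adjusted p = 0.00405). The calcium pump ATP2A1 (SERCA1) of fast fibres fell by 0.46 ± 0.11 (adjusted p = 0.00353), the release channel RYR1 fell by 0.21 ± 0.08 (adjusted p = 0.0499) and the calcium sensor STIM1 fell by 0.16 ± 0.05 (adjusted p = 0.0425). CEBPG and TXNDC12 were not called under median scaling, STIM1 was not called under that or spike-in scaling, OS9 was not called under 75th percentile scaling, and CEBPB, CEBPG, TXNDC12 and RYR1 were not called under spike-in scaling. With 1 array left out, RYR1 was called in 11 of 35 fits and STIM1 in 13 of 35, so both stand at the threshold. With the connective tissue mean in the fit, SLC3A2 was the only one of these 12 genes called, and with the leukocyte mean or with array brightness SELENOS, OS9, SSR2, CASQ2 and SLC3A2 were. SSR2 was not called with the processed signal.

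By slide, the change of CANX was 0.49, -0.18, 0.56, 0.28 and 0.49 on the 5 slides (differences of the HS and TN means on each, without a term for breed). The first 4 slides held 8 arrays each and the fifth 3. HSP90B1 gave 0.52, -0.25, 0.51, 0.17 and 0.46, and XBP1 0.47, -0.14, 0.41, 0.09 and 0.36, so slide 2 ran against the others in each. The TN arrays of that slide include F1 TN replicate 2, which had the second highest value of all 35 arrays in each of these genes. The differences on slide 2 without that array were not computed, so they cannot be read as a trait of the slide. HSPA5 gave 0.01, -0.38, 0.46, -0.09 and 0.04. With slide as a block, CANX changed by 0.31 (adjusted p = 0.0311) and HSPA5 by 0.00 (adjusted p = 0.994).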

How the data were processed

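Each array was scanned once, and the scanner files hold spot intensities. The authors extracted these intensities with Agilent Feature Extraction 10.10.1.1, and the deposited value table holds log2 values of the same arrays, whose 35 columns each matched their own array best (lowest r = 1.00). Here quantile normalisation was applied to each spot's median pixel value, with no background taken off, followed by log2, and 105 outlier spots became missing values. A probe stayed in if the scanner called it well above background on 75% or more of the arrays in any group. Differences were tested with limma 3.58.1 in R 4.3.3 (breed + temperature, or the 6 group means), and the procedure was tested on simulated data. Pen, slaughter day and parents, random terms in the study's model, could not be fitted. No depth exists for arrays, and their number limits the precision. Genes were named from the files, or through gene tables by accession or synonym. The members and lists were chosen with earlier results of these data known. Named pathway genes were those called for temperature or for Creole against Large White, plus the largest change of each list. Replicate numbers follow accession order only. Arrays were scaled also by the 75th percentile, the median and 7 spike-in probes; other settings are given in the closing section.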

Additional observations from a re-analysis of the deposited data

Results flagged for a closer look

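In 54 combinations of a member gene and a group, 9 had an extreme value whose gap to its nearest neighbour took up more of the group's range than Dixon's 95% limit allows, where chance gives about 1 in 20, or 2.7. One array, F1 TN replicate 2, gave 5 of them: its value was the highest of its group by a share of the range of 0.688 in HSPA5 (13.53, next 12.74), 0.706 in HSP90B1 (14.50, next 13.58), 0.692 in CALR (15.62, next 14.60), 0.643 in CANX (13.02, next 12.39) and 0.642 in PDIA3 (11.79, next 10.85). Since these genes vary together, the 5 are close to 1 observation. Its share of probes well above background was 63.5%, rank 34 of 35 arrays from the highest down, and its brightness ranked 19.

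Large White HS replicate 5 was the highest of its group in HSPA5 (share 0.706; 13.86, next 12.73) and the lowest in ATF4 (share 0.630; 17.79, next 17.89). It was the brightest of the 35 arrays and ranked second in probes well above background (73.9%). Creole TN replicate 1 was the highest of its group in ATF4 (share 0.861; 18.24, next 18.01), and Creole HS replicate 4 the lowest in HERPUD1 (share 0.683; 12.90, next 13.19).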

How the results depend on the processing

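CANX was the 1 member gene called for HS against TN. No member gene (0) was called under 75th percentile scaling, spike-in scaling, the processed signal (0.24, adjusted p = 0.0777), no filter on dim probes (0.29, adjusted p = 0.0549), array brightness or the connective tissue marker mean as covariates; with the leukocyte mean the 1 gene called was HSPA5, lower in HS. With 1 array left out the count ran from 0 to 2 and the CANX change from 0.24 to 0.34. The count was 1, CANX, under median scaling, normexp, the deposited values, probes well above background on every array, slide as a block, array weights, no breed term, and without both arrays that stood apart, an alternative chosen after seeing the data. For F1 against Creole the count of 0 became 1 (ATF4) with normexp and with array weights. In the other 6 comparisons it was 0 under every alternative run. Over all probes, HS against TN called 6654, but 2092 with the brightness covariate, 2593 with the leukocyte mean and 988 with the connective tissue mean. Across the alternatives other than leaving out 1 array, Creole against Large White called 893 to 2182 (1513 as reported), F1 against Creole 101 to 483 (198), F1 against Large White 140 to 795 (218), and HS against TN 0 to 1781 within Creole (792), 0 to 714 within F1 (2) and 0 to 826 within Large White pigs (2).

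Small differences changed sign. For HS against TN, HSPA5 was 0.017 under median scaling, 0.097 under spike-in scaling, 0.0021 with slide as a block and 0.017 at its overlapping probe. HERPUD1 was 0.0039 under median scaling, 0.084 under spike-in scaling, 0.020 with array weights and 0.0032 with brightness, and EIF2AK3 0.020 under spike-in scaling. ATF4 was 0.034 (weights), 0.0050 (brightness), 0.042 (connective tissue), 0.0014 (no breed term) and 0.013 (both arrays out). With the leukocyte mean HSP90B1 was -0.16, CALR -0.29, PDIA3 -0.17, PPIB -0.23 and PDIA5 -0.14, with the connective tissue mean HSP90B1 -0.0060, CALR -0.12, PPIB -0.085 and PDIA5 -0.034, and with brightness CALR -0.092 and PDIA3 -0.026. CALR was -0.022 and CANX -0.066 at another probe, and CANX -0.18 on slide 2, which held F1 TN replicate 2. For Creole against Large White, HSP90B1 was 0.067 (leukocytes), 0.15 (connective tissue) and 0.033 (both arrays out), CALR 0.040 and 0.15 in the first 2 of these, HSPA5 0.062 (connective tissue), and CANX -0.019 (median) and -0.043 (spike-in). PDIA3 there was 0.0025 (normexp), 0.0015 (processed), 0.030 (slide), 0.041 (brightness), 0.12 (leukocytes), 0.18 (connective tissue) and 0.10 (both arrays out). With 1 array left out, HS against TN ran from -0.082 to 0.042 for HSPA5, -0.018 to 0.0089 for ATF4, -0.0041 to 0.067 for DDIT3 and -0.033 to 0.0069 for HERPUD1, and Creole against Large White from -0.010 to 0.10 for CANX, -0.13 to 0.036 for HSP90B1 and -0.13 to 0.10 for PDIA3. The causes were not tested.

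No paired analysis was possible because the replicate numbers follow accession order and pair no pigs. Probe signal over background set no limit at the 40 probes kept, each well above background on all 35 arrays.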
